A study of Mus musculus with 18 samples.

Results

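The comparison described here set CD4 single-positive thymocytes of W131AOTII mice against those of OTII mice, and its members were chosen by the names of the deposited columns: 6 of the 18 libraries of the series, 3 per genotype. All mice had the C57BL/6 background and all carried the OT-II receptor, a T cell receptor transgene whose product recognises a peptide of ovalbumin on class II molecules. The W131AOTII mice carried in addition W131A, a tryptophan to alanine substitution in the kinase ZAP-70, and the series presents them as a genetic model of anergy in T cells, a state of lasting unresponsiveness. In both genotypes the sorted cells were CD25-negative, positive for Va2 (the alpha chain segment of OT-II) and single positive for CD4. The RNA came from 3 OTII mice and from 12 W131AOTII mice; the labels add 4 mice per group for the latter, so the W131AOTII libraries may each hold a pool of animals. The sources used here do not give the age of the mice or say which mouse went into which library, and p-values therefore cover only the spread among the libraries, which may be technical. The study asked which pathways the ubiquitin ligase Cbl-b controls in anergic cells. The thymic groups held no mice without Cbl-b, and the labels give no separate question for them.

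ZAP-70 binds the phosphorylated chains of the T cell receptor and passes the signal on to the adaptor LAT. In the resting kinase, contacts around the tryptophan that W131A replaces hold an autoinhibited shape, and alanine at that position loosens it. In the thymus the strength of receptor signalling decides whether a cell is positively selected, deleted or diverted to the regulatory lineage. The surface proteins CD5 and CD6 and the nuclear receptor Nur77 (Nr4a1) are read as gauges of that signal, because their expression follows it. Cells that have passed selection raise the transcription factor Klf2 and the receptor S1pr1, which lets them leave for the blood.

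The codon behind the substitution is shown here because it defines the genotype. It is the reference sequence of Zap70, since the mutant allele itself was not read. The stretch runs along the GENCODE M21 transcript from chr1:36771171-36771809 (GRCm38, plus strand, crossing from exon 2 into exon 3), and capitals mark the codon of that tryptophan (chr1:36771201-36771203), which encodes tryptophan in a protein of 618 residues.
Zap70 W131 codon: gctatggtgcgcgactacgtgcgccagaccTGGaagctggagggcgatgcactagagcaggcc
Zap70 itself (chr1:36761798-36782818) was read at 302, 420.4 and 385 CPM (read counts scaled by the TMM-adjusted library size) in OTII libraries 1, 2 and 3 and at 478, 239.7 and 326 CPM in W131AOTII libraries 1, 2 and 3. The groups overlapped, and the log2 fold change of W131AOTII over OTII was -0.09 (standard error, SE, 0.20; edgeR adjusted p = 0.874). A count per gene cannot show a substitution, so this value does not check the genotype. Cblb, which encodes Cbl-b, was read at 78.6, 97.2 and 96.7 CPM in OTII and at 112, 124 and 141 CPM in W131AOTII thymocytes. Its groups did not overlap, yet the test was not passed (log2 fold change 0.47, adjusted p = 0.17).

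The 6 libraries held between 20001233 and 32262064 counts. Markers of the sorted cell were checked first. Cd4 ran from 1188 to 1439 CPM in OTII and from 1186 to 1330 CPM in W131AOTII, and Rag1, which thymocytes switch off on maturation, did not exceed 3.24 CPM in any library. Cd8a was at 13.4 to 15.5 CPM in OTII and 15.8 to 27.9 CPM in W131AOTII, and Cd8b1 at 146 to 190.1 and 172 to 180.4 CPM. The B cell factor gene Pax5 had 0 counts in 5 of the 6 libraries and 1 count in W131AOTII library 2. Of the 17 genes of the B cell list, 8 were under 1 CPM in all 6 libraries. Its most abundant members were Ighm and Blk, and Blk was counted among the innate-like markers as well. These 2 genes were at 597 to 762 and 45.3 to 160.7 CPM in OTII. In W131AOTII they were at 604 to 879 and 12.8 to 81.8 CPM. The list of 17 genes summed to 662.8 to 956.1 CPM in OTII and 641 to 988.5 CPM in W131AOTII. A list of 18 markers of innate-like and NK cells, whose most abundant members were Trdc and Sox13, summed to 628 to 1813 CPM in OTII and 614.5 to 1823 CPM in W131AOTII, highest in OTII library 2 and W131AOTII library 1. OTII library 3 stood apart in genes that respond to tissue handling, with Hspa1b at 0.283, 0.0982 and 113 CPM and Jun at 1.93, 3.77 and 80.9 CPM in OTII libraries 1 to 3, against a highest value of 2.7 and 5.02 CPM in W131AOTII. W131AOTII library 1 had the highest sum over 24 handling and heat shock genes, 7100 CPM against 4361 to 5253 CPM in the other libraries, and the highest sum over 24 cell cycle genes, 3283 CPM against 1254 to 2237 CPM. The part that these differences have in the results was not tested beyond leaving out each library in turn.

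Of 15204 genes tested, 421 (2.77%) differed between the genotypes at an adjusted p under 0.05 (edgeR's quasi-likelihood test, Benjamini-Hochberg adjusted over all genes). Of these, 263 genes (1.73%) were higher and 158 (1.04%) lower in W131AOTII thymocytes, and 151 of the higher and 59 of the lower genes changed at least 2-fold. The libraries of the genotypes did not overlap for 258 of the higher and all 158 lower genes. The test itself favours genes whose libraries separate, and the share without overlap over all genes is not given, so this count adds nothing to the calls. The median log2 fold change over all genes was 0.01. With an offset for GC content and length the split became 263 higher and 274 lower. Single libraries carried much weight: 241 genes were called without OTII library 1, 177 without OTII library 3 and 220 without W131AOTII library 3. A fit of the 6 thymic libraries alone called 140 genes, all of them among the 421. All 421 genes kept their sign when any 1 of the 6 libraries was left out. For genes whose libraries do not overlap this outcome was nearly fixed in advance, so it is no separate support. In bulk RNA, fewer cells of a type and less RNA per cell cannot be told apart.

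**Figure D1:**
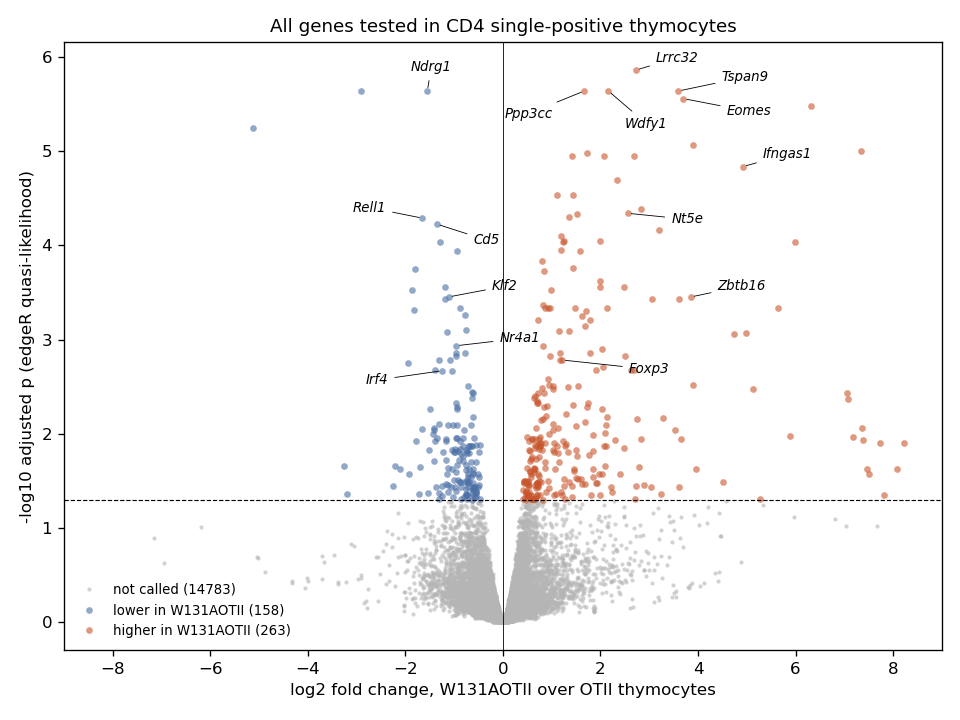
Each point is 1 of the 15204 genes tested, with the log2 fold change of W131AOTII over OTII thymocytes on the x axis and -log10 of the edgeR adjusted p on the y axis; the dashed line marks an adjusted p of 0.05. The 263 higher genes reach larger fitted fold changes than the 158 lower genes; fitted values of genes near 0 in one genotype depend on the prior count and are not sizes of effect.

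Genes read as gauges of receptor signal were among those that fell. Of 25 receptor signal reporters, all measured, 7 fell, 3 rose and 15 did not pass the test; the list's median log2 fold change was -0.33. Cd5, a receptor that dampens T cell receptor signalling and is set during selection, was read at 467, 491 and 511 CPM in OTII and 247, 159 and 169 CPM in W131AOTII thymocytes. Every W131AOTII library lay below every OTII library, a 2.56-fold lower level (log2 fold change -1.35, SE 0.16, adjusted p = 5.95e-05). Cd6, the neighbour of Cd5 on chromosome 19 (Cd5 at chr19:10717116-10739002, Cd6 at chr19:10789341-10830058), encodes a related scavenger-receptor protein. It was read at 837, 1042 and 1076 CPM in OTII and 614, 490.0 and 494 CPM in W131AOTII, again with no overlap (log2 fold change -0.89, SE 0.13, adjusted p = 0.000463).

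Of the 7 reporters that fell, 4 encode transcription factors: Nr4a1, Irf4, Egr2 and Egr1. Nr4a1 was at 250.2, 225 and 248 CPM in OTII and 147, 95.4 and 130.0 CPM in W131AOTII, so that the groups stood well apart (log2 fold change -0.96, SE 0.15, adjusted p = 0.00116). Irf4, a factor whose amount follows signal strength, was at 60.0, 64.5 and 77.7 CPM in OTII and 28.9, 25.2 and 31.4 CPM in W131AOTII. This was a 2.37-fold fall with no overlap (adjusted p = 0.00214). Egr2, an early response factor of selection, was at 149.5, 118 and 150.4 CPM in OTII and 84.6, 79.8 and 99.0 CPM in W131AOTII, with no overlap (log2 fold change -0.66, adjusted p = 0.0197). Its relative Egr1 fell too (log2 fold change -0.62, adjusted p = 0.0452), and the phosphatase gene Dusp5, which restrains the MAP kinase ERK, did so as well (log2 fold change -0.71, adjusted p = 0.0266). Cd69, a surface marker of recent signalling, did not pass, with 166, 98.7 and 132 CPM in OTII and 88.0, 138 and 137 CPM in W131AOTII (log2 fold change -0.13, adjusted p = 0.783). The 3 reporters that rose were Il2ra, Tnfrsf9 and Cd83, and their values follow with the regulatory T cell genes. Without OTII library 3, the one with high Hspa1b and Jun, 4 of the 25 reporters fell and 1 rose, and without OTII library 1 there were 4 and 2; the fit of the 6 thymic libraries alone gave 4 and 3. Cd5, Cd6, Nr4a1 and Irf4 stayed called with any 1 library left out. Egr1 and Egr2 lost the call without OTII library 1 or 3 or W131AOTII library 1 or 2, and Dusp5 without OTII library 1 or 3 or W131AOTII library 2 or 3.

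**Figure D2:**
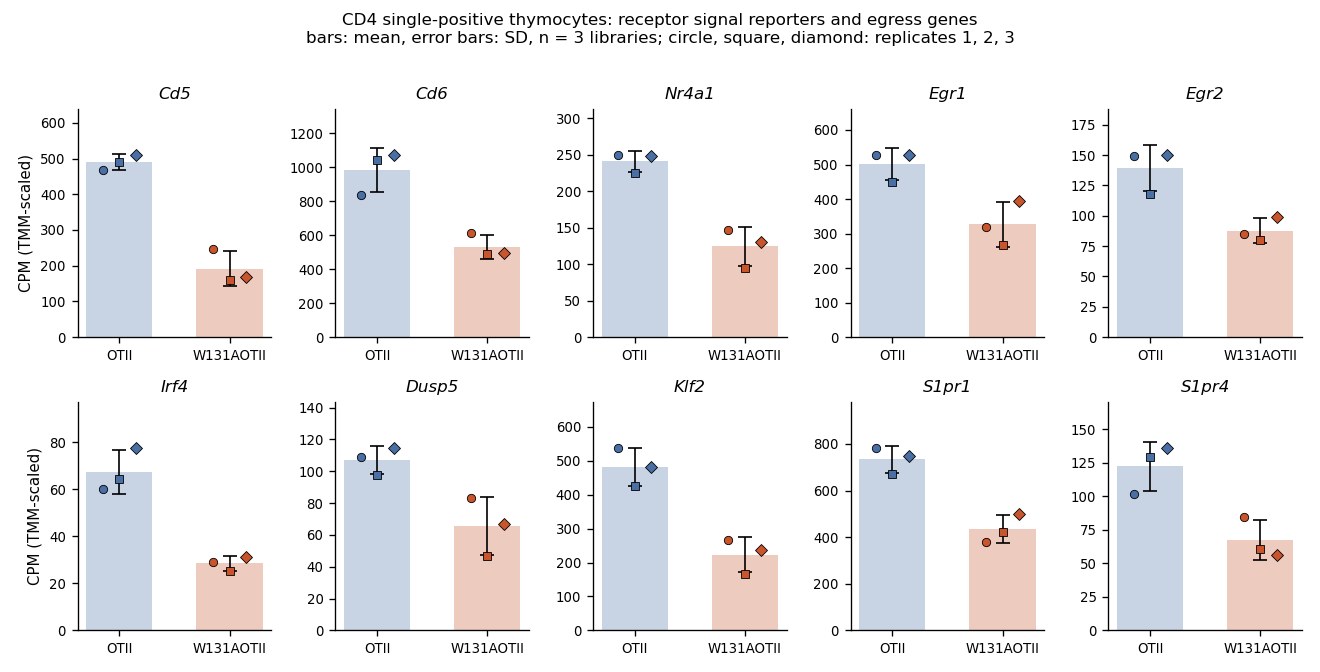
CPM of 10 genes in the 3 OTII (blue) and 3 W131AOTII (orange) thymic libraries, on a linear axis from 0 for each gene; bars are means, error bars SD, and circle, square and diamond are replicates 1, 2 and 3. The genes drawn were picked from those called lower, none of which had overlapping libraries. All W131AOTII libraries therefore lie below all OTII libraries in each panel, with Cd5 at 247 CPM or less against 467 CPM or more.

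Several immediate early genes and feedback genes of the MAP kinases fell as well. Of 25 such genes 22 were measured, of which 5 fell and 0 rose (median log2 fold change -0.34). Zfp36, which encodes an RNA-binding protein that speeds mRNA decay, was at 249.9, 170.0 and 225 CPM in OTII and 133, 110.4 and 131.3 CPM in W131AOTII (log2 fold change -0.78, adjusted p = 0.00137). Dusp1, a phosphatase gene of the same pathway, was at 86.2, 70.2 and 117 and 60.7, 51.2 and 51.0 CPM (adjusted p = 0.0159). Fos was at 12.0, 8.32 and 47.1 CPM in OTII and 5.45, 3.94 and 6.20 CPM in W131AOTII, and its fall of 2.12 on the log2 scale (adjusted p = 0.0233) came with OTII library 3 as the highest. Without that library only 1 of 23 such genes was called lower, and without W131AOTII library 3 also 1, with medians of -0.21 and -0.50; without W131AOTII library 2 there were 2. In the fit of the 6 thymic libraries alone 0 of 20 such genes were called, Zfp36 at an adjusted p of 0.0737. Zfp36 was still called with any 1 library left out of the full fit, Fos was lost without OTII library 3 or any W131AOTII library, Dusp1 without OTII library 3 or W131AOTII library 3, and Ier5 (log2 fold change -0.57) without OTII library 1 or 3 or W131AOTII library 2 or 3.

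Among inhibitors of the receptor, 12.9% of negative regulators and 11.8% of inhibitory receptors were called, beside 2.77% of all genes tested. For the genes of proximal signalling the share was 3.23%, near that of all genes. Among 31 measured negative regulators of receptor signalling, 3 fell and 1 rose. The falls were Cd5, Cd6 and Ubash3b, a phosphatase gene that acts on ZAP-70 (from 50.0 to 57.3 CPM to 31.0 to 38.1 CPM, adjusted p = 0.0462), and the rise was Lax1, an adaptor gene (log2 fold change 0.60, adjusted p = 0.0114). The call of Ubash3b was lost when any 1 library was left out, and that of Lax1 without OTII library 3. Of 17 inhibitory receptors, 2 fell, again Cd5 and Cd6. Pdcd1, which encodes PD-1, varied within both genotypes, with 146, 242 and 115 CPM in OTII and 314, 133 and 224 CPM in W131AOTII (adjusted p = 0.511). Ctla4 was at 9.48, 6.75 and 7.07 and 8.54, 9.56 and 5.99 CPM, with overlapping libraries (log2 fold change 0.05, SE 0.24, adjusted p = 0.941). Of 31 genes of proximal signalling only Cd2, an adhesion receptor gene, was called (log2 fold change -0.56, adjusted p = 0.0399), and that call was kept only when OTII library 2 was the one left out. Lck and Lat, the kinase before and the adaptor after ZAP-70, had log2 fold changes of 0.14 and -0.22 (adjusted p = 0.663 and 0.575).

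Some genes of late maturation and thymic exit fell. Of 34 genes of mature thymocytes and egress 7 fell and 0 rose, 20.6% called beside 2.77% of all genes tested. The median log2 fold change was -0.21, beside 0.01 over all genes, and 28 of the 34 had a negative log2 fold change. Klf2, the factor that switches on the exit receptors, was at 539, 427 and 481 CPM in OTII and 267, 166 and 237 CPM in W131AOTII thymocytes. Its libraries did not overlap (log2 fold change -1.11, SE 0.16, adjusted p = 0.000352). S1pr1, the sphingosine-1-phosphate receptor that guides cells out of the thymus, was at 784, 669.6 and 749 CPM in OTII and 379, 423 and 499 CPM in W131AOTII, a 1.69-fold lower level with no overlap (log2 fold change -0.76, SE 0.12, adjusted p = 0.000795). S1pr4, a second receptor of that lipid, was at 101, 129 and 136 and 84.5, 60.8 and 56.5 CPM (adjusted p = 0.0164). The other 4 were the class I genes H2-Q4 and H2-Q7, which mark mature thymocytes and have near-identical copies that can share reads, and the GTPase genes Gimap3 and Gimap4; their log2 fold changes ran from -0.88 to -0.49. Ccr7, the receptor that leads cells into the medulla, was at 1738, 1668 and 1771 CPM in OTII and 1298, 1287 and 1491 CPM in W131AOTII, without overlap but short of the threshold (log2 fold change -0.34, adjusted p = 0.159). Without OTII library 3, 2 of the 34 genes were called lower, and without W131AOTII library 3 there were 3; in the fit of the 6 thymic libraries alone Klf2 was the 1 called. Klf2 and S1pr1 kept their calls with any 1 library left out, though S1pr1 did not pass in a fit of the 6 thymic libraries alone (adjusted p = 0.0624). S1pr4 and H2-Q4 were lost without OTII library 3 or W131AOTII library 3, H2-Q7 without replicate 2 or 3 of either genotype, Gimap3 without replicate 1 or 3 of either genotype, and Gimap4 without OTII library 1 or 3 or W131AOTII library 1.

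Of 28 immature thymocyte genes 0 were called, 13 with a positive and 15 with a negative log2 fold change (median -0.04). With 2.77% of all genes tested called, 0 of 28 is near that share and does not set this list apart. At an unadjusted p under 0.05 in edgeR there were 7, beside 2500 of all 15204 genes tested. By the DESeq2 Wald test 1 rose and 2 fell, and by limma 1 rose and 1 fell. Rag1 had a log2 fold change of 0.49 (SE 0.71, adjusted p = 0.775). Cd24a, a surface protein lost during maturation, was at 37.4, 28.1 and 21.0 CPM in OTII and 15.1, 15.1 and 21.3 CPM in W131AOTII, where the groups overlapped (adjusted p = 0.374). The factors that set the CD4 lineage did not pass either. Zbtb7b, which encodes ThPOK, was at 131.2, 123 and 149.9 and 103, 93.8 and 94.1 CPM with no overlap (log2 fold change -0.48, adjusted p = 0.0874; by DESeq2 0.0434), and Gata3 was at 286, 362 and 237 and 259, 103 and 220.4 CPM (log2 fold change -0.61, adjusted p = 0.18; called without W131AOTII library 1). Among 25 lineage factors, Zbtb16 rose and Id3, an inhibitor of E proteins that receptor signals induce, fell (log2 fold change -0.74, adjusted p = 0.0486). Id3 kept its call only when W131AOTII library 1 was the one left out.

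Promoter sequence is shown for Nr4a1 and Klf2, which stand for both groups that fell, receptor reporters and exit genes, and which hold the same motif of the Egr family. The motif searched was GCGGGGGCG on both strands, in the 250 bases before the RefSeq start; it was picked after the values were seen. It occurred in 2.57% of all 32851 promoters of that length (RefSeq, GRCm38.p6). Among genes matched to a promoter by symbol it occurred in 11 of 111 lower genes (9.91%), 11 of 195 higher genes (5.64%) and 5.20% of 9957 genes tested but not called, with no test made. Capitals mark the motif, which in Nr4a1 lies on the opposite strand. The Nr4a1 window is chr15:101266596-101266845 and the Klf2 window chr8:72318812-72319061, both on the plus strand. A match describes letters only, and binding was not measured.
Nr4a1 promoter: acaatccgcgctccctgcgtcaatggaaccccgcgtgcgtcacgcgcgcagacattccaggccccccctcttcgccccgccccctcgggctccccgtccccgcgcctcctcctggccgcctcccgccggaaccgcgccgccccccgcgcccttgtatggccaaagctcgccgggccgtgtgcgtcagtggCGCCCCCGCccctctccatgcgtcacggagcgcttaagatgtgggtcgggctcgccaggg
Klf2 promoter: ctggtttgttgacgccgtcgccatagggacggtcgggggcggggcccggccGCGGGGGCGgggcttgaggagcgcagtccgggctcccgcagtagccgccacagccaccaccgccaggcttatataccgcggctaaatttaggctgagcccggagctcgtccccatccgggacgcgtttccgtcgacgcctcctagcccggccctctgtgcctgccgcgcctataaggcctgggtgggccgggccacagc

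Genes of the regulatory T cell lineage rose in cells sorted as CD25-negative. Of 25 regulatory T cell markers and precursor genes 7 rose and 1 fell, and the median log2 fold change was 0.86. Lrrc32, which encodes GARP, the protein that docks latent TGF-beta on regulatory T cells, had the smallest adjusted p of the named genes. It was at 2.97, 4.55 and 3.78 CPM in OTII and 30.4, 17.6 and 27.7 CPM in W131AOTII, a 6.63-fold higher level (log2 fold change 2.73, SE 0.22, adjusted p = 1.38e-06). Nt5e, which encodes the ectoenzyme CD73 and marks both regulatory and anergic CD4 cells, was at 8.92, 9.46 and 3.95 CPM in OTII and 56.6, 38.8 and 37.2 CPM in W131AOTII. All W131AOTII libraries stood far above the highest OTII library (log2 fold change 2.56, SE 0.30, adjusted p = 4.57e-05).

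Foxp3, the factor that defines the lineage, was at 10.4, 10.3 and 12.0 CPM in OTII and 35.0, 22.5 and 18.6 CPM in W131AOTII (log2 fold change 1.22, SE 0.20, adjusted p = 0.00164). The OTII libraries lay close together, and the W131AOTII libraries were spread, with library 1 highest. Il2ra, which encodes the CD25 that the sort excluded at the surface, was at 15.2, 16.5 and 9.75 CPM in OTII and 37.5, 29.2 and 39.7 CPM in W131AOTII. It was higher in each W131AOTII library (log2 fold change 1.36, adjusted p = 4.94e-05). The other 3 that rose were Tnfrsf9 (25.4, 32.9 and 23.3 against 61.0, 46.2 and 50.2 CPM, adjusted p = 0.0101), Cish and Fgl2 (log2 fold change 2.03, adjusted p = 0.00548).

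Not every gene of that lineage moved with them. Gpr83, a receptor gene enriched in regulatory T cells, fell from 52.3 to 56.2 CPM in OTII to 28.6 to 36.8 CPM in W131AOTII (log2 fold change -0.71, adjusted p = 0.00307). Izumo1r, which encodes folate receptor 4, was at 167, 157 and 171 and 209.9, 93.1 and 113 CPM with overlap (adjusted p = 0.642), and neither Ikzf2 (log2 fold change 0.55, adjusted p = 0.452) nor Tnfrsf18 passed the test (-0.36, adjusted p = 0.346). Cd83, an activation marker counted with the receptor reporters, rose from 3.29 to 5.44 to 11.1 to 15.2 CPM (adjusted p = 0.0233), and Lad1, a gene of the strong-signal selection list, from 5.76 to 9.01 to 16.5 to 32.2 CPM (adjusted p = 0.000496). That list of 24 held 2 genes that rose and 4 that fell, the falls being Nr4a1, Egr2, Id3 and Itm2a (log2 fold change -0.75), and Bcl2l11, the gene of the death factor Bim, was at 65.2, 70.5 and 62.4 and 54.4, 52.6 and 69.9 CPM (adjusted p = 0.606). Without OTII library 1 or 3 the list held 1 rise and 1 fall, without W131AOTII library 3 there were 1 and 2, and without W131AOTII library 1 there were 1 and 3. Of the regulatory T cell list, between 6 and 10 genes rose with 1 library left out, 6 of them without OTII library 3. Tnfrsf9 was lost without OTII library 3, Cd83 and Itm2a without replicate 1 or 3 of either genotype, and Gpr83 in the fit of the 6 thymic libraries alone.

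**Figure D3:**
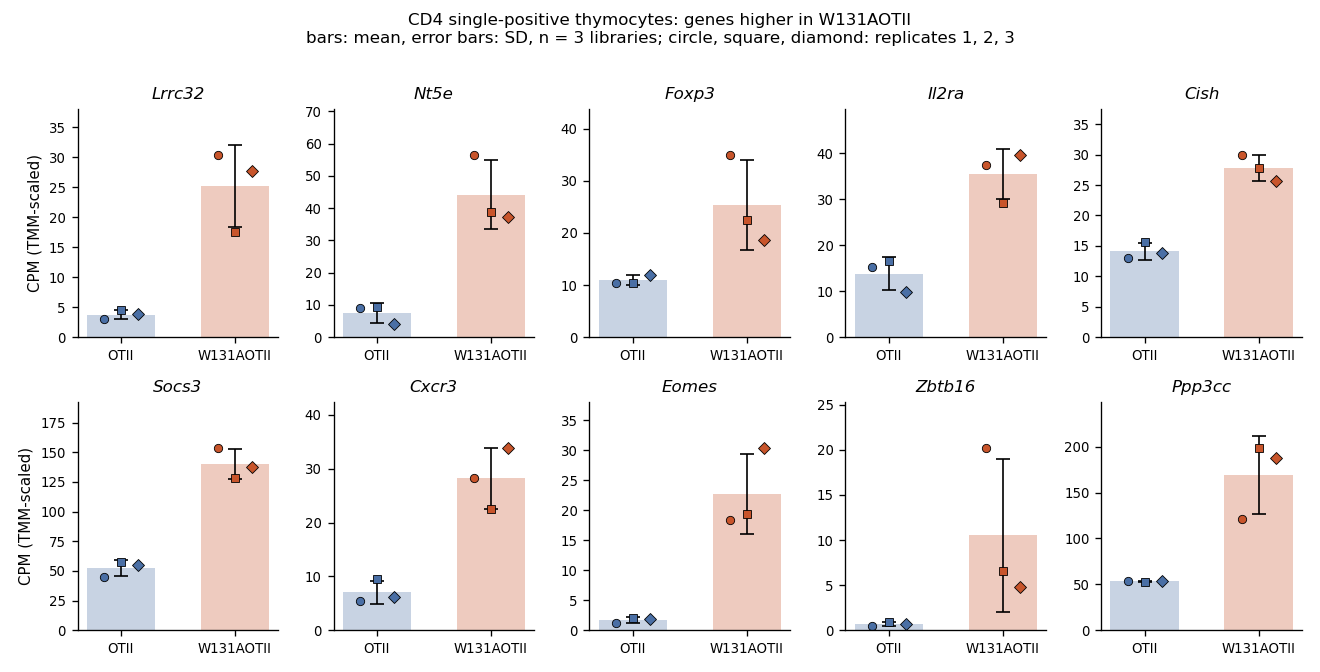
CPM of 10 genes in the 3 OTII (blue) and 3 W131AOTII (orange) thymic libraries, on a linear axis from 0 for each gene; bars are means, error bars SD, and circle, square and diamond are replicates 1, 2 and 3. The genes drawn were picked from those called higher, few of which had overlapping libraries. All W131AOTII libraries lie above all OTII libraries in each panel, and for Zbtb16 library 1 stands far above the other W131AOTII libraries.

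Cytokine signalling genes rose in a few members. Of 10 inhibitors of cytokine signalling 2 rose and 0 fell. Cish, which STAT5 induces, was at 13.0, 15.6 and 13.8 CPM in OTII and 30.0, 27.8 and 25.6 CPM in W131AOTII (log2 fold change 0.98, SE 0.14, adjusted p = 0.000296). Socs3, a brake on receptors of the gp130 family, was at 45.0, 57.9 and 55.1 CPM in OTII and 154, 129 and 138 CPM in W131AOTII (log2 fold change 1.41, SE 0.15, adjusted p = 1.14e-05). Each of these stood apart in every library and kept its call with any 1 left out. Of 27 cytokine receptors 3 rose and 1 fell: besides Il2ra, Il4ra rose by 0.68 on the log2 scale (adjusted p = 0.00876) and Il21r by 0.56 (adjusted p = 0.0151), while Il6ra fell by 0.70 on the log2 scale (adjusted p = 0.0233). Without W131AOTII library 3 only 1 receptor gene rose. Il4ra was lost without W131AOTII library 3, Il21r without OTII library 1 or 3 or W131AOTII library 3, and Il6ra without OTII library 1 or 3 or W131AOTII library 1 or 2. Of 15 measured cytokines and TNF ligands, Tnfsf8, the CD30 ligand gene, rose from 29.9 to 40.2 to 46.0 to 63.8 CPM (adjusted p = 0.0227; lost without replicate 2 or 3 of either genotype), and Il4 was at 0.660, 0.262 and 0.264 CPM in OTII and 4.44, 1.90 and 1.38 CPM in W131AOTII (adjusted p = 0.0494; lost when any 1 library was left out).

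Of 17 measured innate-like and NK cell markers 2 rose, and both encode transcription factors of innate-like T cells. Eomes, a T-box factor, was at 1.23, 2.03 and 1.93 CPM in OTII and 18.4, 19.4 and 30.4 CPM in W131AOTII, a 13.0-fold higher level (log2 fold change 3.70, SE 0.34, adjusted p = 2.77e-06). Zbtb16, which encodes PLZF, was at 0.519, 0.884 and 0.747 CPM in OTII and 20.2, 6.58 and 4.78 CPM in W131AOTII. Library 1 was far above the other W131AOTII libraries, and all of them exceeded the OTII libraries (log2 fold change 3.85, SE 0.53, adjusted p = 0.000352). Both kept their calls with any 1 library left out. The most abundant markers of the same list overlapped between the genotypes: Trdc, the constant segment of the delta chain, was at 241, 322 and 149.7 and 465, 211 and 362 CPM, and Sox13, a factor of gamma-delta cells, at 209.5, 590.4 and 168 and 419, 76.1 and 236 CPM (adjusted p = 0.343 and 0.775). Of 10 markers of CD8 T cells, Eomes and Cst7 rose, Cst7 from 11.5 to 24.7 to 35.4 to 72.8 CPM (adjusted p = 0.00817; lost without OTII library 3), while Nkg7 and Cd8b1 did not pass (adjusted p = 0.662 and 0.753).

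Chemokine receptors of effector and innate-like cells were higher as well. Of 23 genes of chemokine receptors and adhesion 5 rose and 1, S1pr1, fell. Cxcr3 was at 5.38, 9.50 and 6.20 CPM in OTII and 28.2, 22.5 and 33.9 CPM in W131AOTII, well separated (log2 fold change 2.00, SE 0.27, adjusted p = 0.000237). Ccr2 was at 1.65, 2.78 and 2.37 CPM in OTII and 32.4, 8.88 and 6.16 CPM in W131AOTII, with library 1 highest as for Zbtb16 (adjusted p = 0.0223). Ccr6, Cxcr5 and Cxcr6 had log2 fold changes of 1.97, 1.35 and 1.99 (adjusted p = 0.0269, 0.032 and 0.045). Without OTII library 1 or 3 only 1 of the 5 was called, without W131AOTII library 1 there were 2, and without OTII library 2 or W131AOTII library 3 there were 3. Cxcr3 stayed called in each of these. Ccr2 was lost without any OTII library or W131AOTII library 1, Ccr6 without OTII library 1 or 3 or W131AOTII library 1, Cxcr5 without OTII library 1 or 3 or W131AOTII library 3, and Cxcr6 when any 1 was left out. The summed innate-like markers given above had overlapping ranges in the genotypes, and their part in these values was not tested.

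Several of the genes with the smallest adjusted p belong to no list. Tspan9, a tetraspanin gene, was at 18.4, 31.3 and 16.9 CPM in OTII and 292, 199 and 318 CPM in W131AOTII, a 12.1-fold higher level (SE of the log2 fold change 0.31, adjusted p = 2.3e-06). Wdfy1, which encodes an endosomal protein, was at 3.92, 5.76 and 6.59 and 23.8, 21.3 and 28.1 CPM (log2 fold change 2.16, adjusted p = 2.3e-06). Ppp3cc, a catalytic subunit of calcineurin and the only one of 21 measured calcium and NFAT genes that was called, was at 53.5, 52.8 and 53.4 CPM in OTII and 121, 199 and 188 CPM in W131AOTII. The OTII libraries lay very close together, and every W131AOTII library was far above them (log2 fold change 1.67, SE 0.15, adjusted p = 2.3e-06). Adam19 and Adamts14, both metalloprotease genes, had log2 fold changes of 2.08 and 1.73. Arhgap5 had one of 2.69, Abcb1a, an efflux pump gene, one of 2.35 and Tmie, a membrane protein gene, one of 1.43. The edgeR adjusted p of these 5 ran from 1.035e-05 to 2.9e-05, and no overlap of libraries was a condition for naming them. Ifngas1, a noncoding RNA next to the interferon gamma gene, went from 0.0439 to 0.330 to 4.60 to 8.75 CPM (adjusted p = 1.46e-05); no source used here gives the strand setting of the counting.

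On the lower side Ndrg1, a gene linked to anergy that Egr2 is known to induce, led with 94.7, 109 and 91.8 CPM in OTII and 31.9, 34.3 and 34.8 CPM in W131AOTII. The libraries of each genotype lay close together and far from the other genotype (log2 fold change -1.55, SE 0.14, adjusted p = 2.3e-06). With Nr4a1 and Egr2 it made up the 3 of 24 anergy-associated genes that fell, and Nt5e was the 1 that rose (median log2 fold change -0.02). Rell1, a relative of TNF receptors, was at 26.7, 19.7 and 24.4 and 8.80, 5.83 and 7.98 CPM (log2 fold change -1.65, adjusted p = 5.14e-05). Tmem64 was at 218, 153 and 201 and 67.9, 80.2 and 85.2 CPM (log2 fold change -1.29, adjusted p = 9.12e-05). Car2, a carbonic anhydrase gene, and Rgs10, a brake on G protein signalling, had log2 fold changes of -1.18 and -1.15. Those of Fgfbp3, Man1c1, Nuak2 and Nacc2 were -1.82, -1.40, -1.32 and -1.04. The edgeR adjusted p of these 6 ran from 0.000369 to 0.00214, and no overlap of libraries was again a condition for naming them. Nuak2 and Nacc2 did not pass in the fit of the 6 thymic libraries alone (adjusted p = 0.0627 and 0.135).

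The remaining lists differed in the share of their members called, beside 2.77% of all genes tested. It was 28.6% for costimulatory receptors, 27.3% for handling and heat shock genes, 4.5% for survival genes and 2.8% for type I interferon response genes. Of 14 costimulatory receptors Cd226, an adhesion receptor gene, rose (log2 fold change 0.85, adjusted p = 0.0052) and Tnfrsf25, the receptor for TL1A, fell from 35.1 to 44.1 to 11.8 to 22.4 CPM (adjusted p = 0.00804), beside Tnfrsf9 and Cd2; 1 gene rose and 1 fell without OTII library 3, and 1 fell without OTII library 1 or any W131AOTII library. Bmf, a death factor gene of the BCL-2 family, was the 1 of 22 survival genes that rose (from 4.72 to 12.2 to 13.6 to 30.8 CPM, adjusted p = 0.0298; lost without OTII library 1 or 3 or W131AOTII library 3). Of 36 type I interferon response genes only Gbp2 was called, lower in W131AOTII (log2 fold change -0.66, adjusted p = 0.0134; lost without OTII library 3). Of 24 NF-kB genes 0 were called by edgeR, DESeq2 or limma, with a median of 0.01 and 2 genes at an unadjusted edgeR p under 0.05. Over all 15204 genes tested, 2500 were at that level. Of 24 cell cycle genes 0 were called by edgeR, DESeq2 or limma, although 23 had a positive log2 fold change (median 0.57) and 9 an unadjusted edgeR p under 0.05. Without OTII library 2 there were 3 that rose, and without W131AOTII library 2 there were 5. Mki67 was at 21.4, 37.5 and 14.3 CPM in OTII and 55.0, 14.0 and 50.9 CPM in W131AOTII, with overlap (adjusted p = 0.551). Of 22 measured handling and heat shock genes 2 rose (Hsph1, from 48.0 to 61.3 to 99.6 to 232 CPM, and Hspd1, lost without OTII library 2 or 3 or W131AOTII library 1 or 3) and 4 fell (Fos, Egr1, Dusp1 and Zfp36); without OTII library 3 it was 1 and 1. Of the other cell types, 0 of 17 B cell, 0 of 19 myeloid and 0 of 6 thymic stroma genes were called by edgeR (1, 2 and 2 at an unadjusted p under 0.05; DESeq2 called 1 stroma gene and limma 1 myeloid gene), and the myeloid sum was 168 to 197.9 CPM in OTII and 98.4 to 188.9 CPM in W131AOTII. The most abundant myeloid markers, Cd74 and Cst3, were at 64.06 to 79.88 and 76.62 to 82.72 CPM in OTII. In W131AOTII these myeloid markers were at 33.26 to 54.3 and 48.26 to 111.3 CPM. The most abundant stroma markers, Pecam1 and Epcam, were at 318 to 412 and 8.787 to 11.32 CPM in OTII. In W131AOTII these stroma markers were at 292.6 to 380 and 12.87 to 17.96 CPM. Pecam1 was at 426.8 to 448.1 CPM in the libraries of peripheral naive OTII cells too, so it does not single out stroma here. Of 6 sex-linked genes 4 were measured, with 0 called in edgeR, DESeq2 and limma (0 at an unadjusted edgeR p under 0.05; 1 fell without W131AOTII library 2). Xist, which was not tested, had 9, 0 and 0 counts in OTII and 0, 0 and 2 counts in W131AOTII libraries 1 to 3. The globin genes Hbb-bs, Hbb-bt, Hba-a1 and Hba-a2 were called higher at trace levels: Hbb-bs was at 0.236, 0.131 and 0 CPM in OTII and 1.97, 2.64 and 17.8 CPM in W131AOTII, and Hba-a1, with 0 counts in OTII, was at least 29.9-fold higher against a floor of 3 counts over the group. Hba-a1 and Hba-a2 share reads, and Hbb-bs, Hba-a1 and Hba-a2 lost their calls without OTII library 3 or W131AOTII library 3. In the fit of the 6 thymic libraries alone, cytokine receptors held 1 rise and 0 falls, strong-signal genes 2 and 1, costimulatory receptors 1 and 1 and handling genes 1 and 0, and the cytokine, survival, interferon and proximal signalling lists held 0 called genes.

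**Figure D4:**
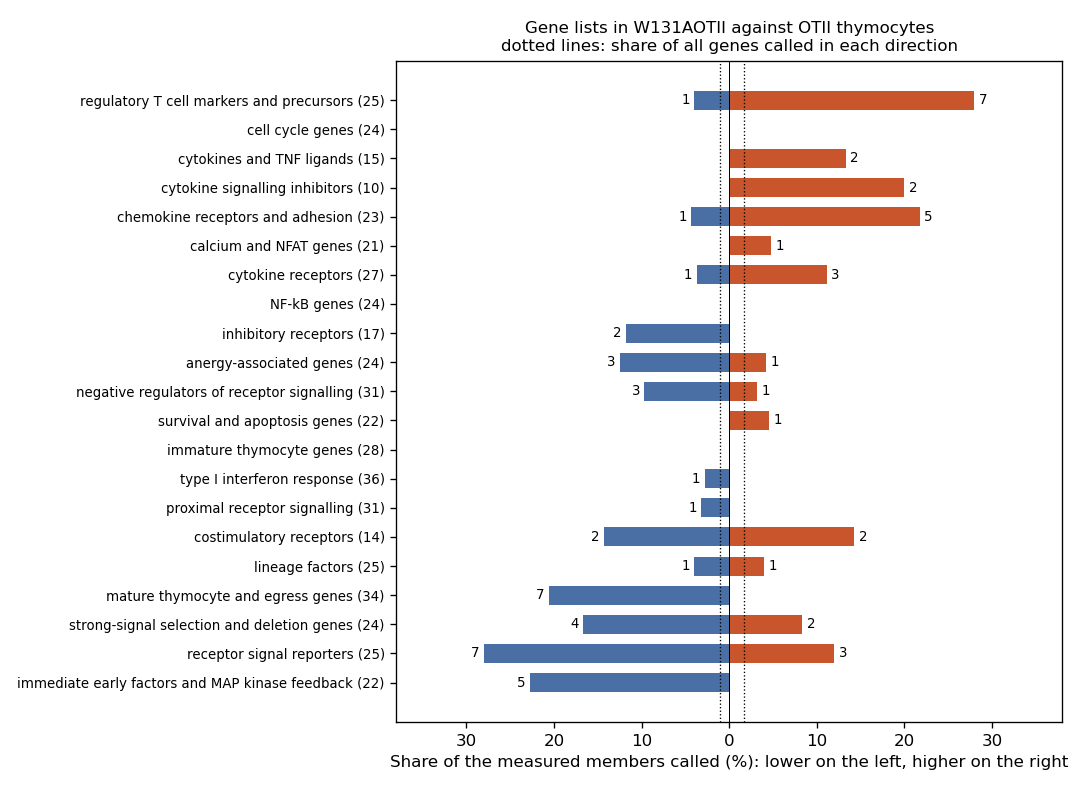
Share of the measured members that was called lower (blue, left) or higher (orange, right) in W131AOTII thymocytes, in percent, for the lists of T cell genes (lists of other cell types and of sample quality are not drawn), with the number called at each bar and the number measured in brackets; lists are ordered by their median log2 fold change. Receptor signal reporters (7 lower of 25) and regulatory T cell genes (7 higher of 25) have the longest bars among the lists drawn, and the dotted lines mark the share of all genes, 1.04% lower and 1.73% higher.

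Some segments of T cell receptor alpha chains were called lower. Of 181 V and J segments of the T cell receptor tested, 10 fell and 0 rose, beside 1.04% of all genes called lower. Of these, 6 were among 71 alpha chain V segments. None of the 24 beta chain V segments was called, which is near the share over all genes. Traj31, an alpha chain J segment that fell, was called in 7 of 15 alternatives and lost without OTII library 1 or 3 or any W131AOTII library. No value is given here for the Va2 segment of OT-II itself. Trac, the constant region of the alpha chain, was at 16610, 14090 and 15490 CPM in OTII and 9904, 9840 and 11070 CPM in W131AOTII (log2 fold change -0.58, adjusted p = 0.0363), and Trbc2, a constant region of the beta chain, at 1901, 1969 and 1813 and 1893, 1424 and 1835 CPM (adjusted p = 0.696). The call of Trac was kept only when OTII library 2 was the one left out. Segments share near-identical stretches and reads were 50 bases long, so single segments are uncertain. Of 104 genes tested that start within 10 Mb of Zap70, 1 (0.962%) was called, Hs6st1, from 44.5 to 72.9 to 109.8 to 184 CPM (log2 fold change 1.36, adjusted p = 0.000815).

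The fall of the receptor reporters was tested against the same substitution in peripheral naive cells, which came from spleen and lymph nodes of the same genotypes and were sorted as CD44-low, CD62L-positive, CD25-negative and Va2-positive (3 libraries each). The W131A effect differed between the tissues for 58 of 15204 genes (0.381%), 45 with the more positive effect in the periphery and 13 in the thymus. Of the 25 receptor signal reporters, 6 were among the 58. Of the 58 genes, 21 had fallen and 13 had risen in the thymus, and 24 were not called there. Without OTII thymic library 1 the count was 37, without W131AOTII thymic library 1 there were 90 positive and 41 negative differences, and without W131AOTII thymic library 3 it was 35. Cd5 was at 202, 216 and 228 CPM in peripheral OTII and 276, 321 and 208 CPM in peripheral W131AOTII cells, with a log2 fold change of 0.32 (SE 0.16, adjusted p = 0.6). The difference of the effects, periphery minus thymus, was 1.67 (SE 0.23, adjusted p = 0.000962). Nr4a1 was at 40.5, 38.9 and 40.2 CPM in peripheral OTII and 69.3, 69.0 and 49.9 CPM in peripheral W131AOTII cells, opposite in direction to the thymus (difference 1.61, SE 0.22, adjusted p = 0.000865).

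Irf4 rose in the periphery (log2 fold change 1.12, adjusted p = 0.00716) and its effects differed by 2.36 (adjusted p = 0.000865). The differences for Cd6, Klf2 and Egr2 were 1.0, 1.34 and 1.11 (adjusted p = 0.0168, 0.00685 and 0.0253). For S1pr1, at a peripheral log2 fold change of -0.02, the difference of 0.74 did not pass (adjusted p = 0.0573). Dusp5, which fell in the thymus, had a difference of 0.65 that did not pass either (edgeR adjusted p = 0.382). Gpr83, which fell in the thymus, rose in the periphery from 18.5 ± 1.11 to 56.7 ± 4.46 CPM (mean ± SD, n = 3 libraries each), and its difference of 2.33 (SE 0.18) had the smallest adjusted p among the named genes, 1.08e-06 by edgeR. Tnfrsf4, Ccr8, Ncmap and Ctla4 were called higher in the periphery and not in the thymus, with differences of 2.46, 2.89, 3.37 and 1.75 (adjusted p from 0.000834 to 0.0256). In the other direction, Ppp3cc, Tmie and Adamts14 rose in the thymus and had peripheral log2 fold changes of 0.35, -0.05 and 0.40, with differences of -1.31, -1.48 and -1.33 (adjusted p = 0.00362, 0.00282 and 0.0168). Leaving out 1 thymic library ended the call of the difference for Egr2 and Man1c1 (OTII library 1 or 3 or W131AOTII library 2), Ctla4 (OTII library 1 or W131AOTII library 3), Adamts14 (OTII library 2 or W131AOTII library 3), Tnfrsf25 (OTII library 1 or 3 or W131AOTII library 3) and Rgs10 (OTII library 1 or 3 or W131AOTII library 2 or 3).

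Other thymic changes had a counterpart in the periphery. Of the 263 genes higher in the thymus, 71 were also among the 255 genes (1.68%) called higher in the periphery, 27.0% of the first and 27.8% of the second list. Lrrc32 went from 11.8 ± 1.65 to 71.9 ± 8.52 CPM in the periphery (mean ± SD, n = 3 libraries each), a log2 fold change of 2.61, and its effects differed by -0.12 (SE 0.28, edgeR adjusted p = 0.916). For Nt5e the peripheral log2 fold change was 2.58 and the difference 0.02 (SE 0.41). Of the 158 genes lower in the thymus 13 were among the 38 genes (0.25%) called lower in the periphery, 8.23% and 34.2% of the lists, and 7 were among those called higher there, 4.43% and 2.75%. Ndrg1 and Rell1 fell in both tissues, with peripheral log2 fold changes of -0.94 and -1.93. Foxp3 had a larger log2 fold change in the periphery (2.25) than in the thymus (1.22), but the difference did not pass (adjusted p = 0.153). The peripheral sort removed CD44-high cells and the thymic sort did not name that marker, so tissue and gate cannot be told apart.

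**Figure D5:**
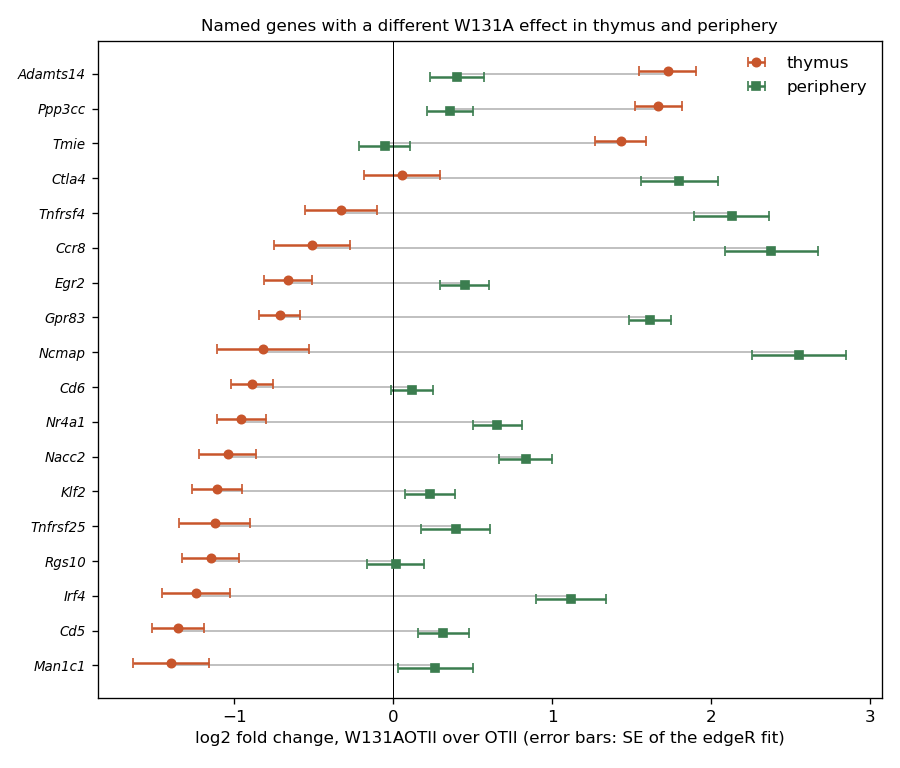
Log2 fold change of W131AOTII over OTII in thymus (orange circles) and in periphery (green squares) for the 18 named genes whose effects differed at an adjusted p under 0.05; error bars are SE of the edgeR fit. The receptor reporters Cd5, Cd6, Nr4a1, Egr2 and Irf4 lie below 0 in the thymus and above 0 in the periphery, while Adamts14, Ppp3cc and Tmie are the 3 genes with the larger value in the thymus.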

How the data were processed

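The members of the comparison and the gene lists were chosen with earlier results of these data known. The values used were whole-number read counts per Ensembl gene in 18 libraries, as deposited by the authors, without normalization. The aligner STAR 2.7.2, the build GRCm38 and, with no version, DESeq2 are named in the submitters' processing notes, without their settings. The sources used here give no counting step, annotation or strand setting. Per the labels' protocols, libraries were made from total RNA and read as single ends of 50 bases. All 55536 identifiers matched GENCODE M21, which gave symbols and coordinates (1-based, GRCm38), and 0 count columns lacked a sample. Thymic libraries held 20001233 to 32262064 counts, and floors of 3 counts cover counting error only.

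All 18 libraries entered 1 fit in edgeR 4.0.16 (R 4.3.3) with 1 mean for each group and 12 degrees of freedom left, so that the 6 groups share 1 estimate of the spread. Genes were kept by filterByExpr, scaled with TMM factors and tested by the robust quasi-likelihood F test, with Benjamini-Hochberg adjustment over all 15204 genes and a threshold of 0.05. The contrasts were W131AOTII minus OTII in the thymus, the same in the periphery, and the difference of both. CPM are on TMM-scaled library sizes, and each SE was taken from that model. A run on simulated counts checked only that the code finds changes set in the thymic W131AOTII libraries. The simulation held no tissue differences and no deviating library, so it is no support for the results here. Alternatives were other libraries in the fit, scalings, filters, DESeq2 1.42.0, limma 3.58.1 voom, a replicate block, offsets for GC content and length (mgcv 1.9.3) and leaving out each thymic library.

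Genes were named by a rule: Zap70, Cblb and 21 chosen genes whatever their result, up to 12 called genes per direction with the smallest adjusted p and no overlap of libraries (at least 2-fold first), up to 4 called members of each of 29 lists (which share members), the 2 most abundant members of each list of other cells, and 6 genes by the difference between tissues. Members of a list past the first 4 were named after their values were seen. So were Lck, Lat, Mki67, Hspa1b, Jun, Pax5, Ikzf2, Tnfrsf18, Trac, Traj31, Trbc2 and Hs6st1. Antigen receptor segments, predicted genes and pseudogenes were otherwise only counted.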

Additional observations from a re-analysis of the deposited data

Results flagged for a closer look

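Named genes whose W131A effect differed between peripheral and thymic cells, by the test of the difference itself in edgeR, are given here as the peripheral minus the thymic log2 fold change. Among receptor signal reporters the difference was 2.36 for Irf4, 1.67 for Cd5, 1.61 for Nr4a1, 1.11 for Egr2 and 1.0 for Cd6. Genes linked to regulatory T cells gave 2.89 for Ccr8, 2.46 for Tnfrsf4, 2.33 for Gpr83 and 1.75 for Ctla4. The exit factor Klf2 gave 1.34. The remaining genes with a larger value in the periphery were Ncmap at 3.37, Nacc2 at 1.87, Man1c1 at 1.66, Tnfrsf25 at 1.52 and Rgs10 at 1.16. Those with a larger value in the thymus were Tmie at -1.48, Adamts14 at -1.33 and Ppp3cc at -1.31. With 3 libraries per group no library was tested as an outlier.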

How the results depend on the processing

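In the thymus 421 genes were called (263 higher, 158 lower). The fit of the 6 thymic libraries alone called 140 (101 higher, 39 lower), with fewer libraries behind the spread. No filter on low counts gave 821 (511 and 310) over 29797 genes, the DESeq2 Wald test 789 (481 and 308), and offsets for GC content and length 274 lower genes beside 263 higher; the cause was not tested. Leaving out 1 thymic library gave 177 to 532 genes, 119 to 325 higher and 58 to 207 lower. For the difference between tissues, 58 genes (45 positive, 13 negative), the fit of 12 libraries called 7 negative, no filter 365 (294 and 71), DESeq2 210 (146 and 64) and the GC and length offsets 27 negative. Leaving out 1 library gave 28 to 90 positive and 7 to 41 negative genes. The remaining alternatives (library size in place of TMM, DESeq2 size factors, the filter of 1 CPM in 3 libraries, limma and the replicate block) kept these counts within 1.5 times.

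No named gene changed sign with a call. Of 78 called genes that are named or belong to a list, 33 lost the call in the fit of the 6 thymic libraries alone, among them Egr1, Egr2, Dusp5, S1pr1, S1pr4, Zfp36, Gpr83, Il4ra, Il21r and Gbp2, whereas Cd5, Cd6, Nr4a1, Irf4, Klf2, Lrrc32, Nt5e, Foxp3, Il2ra, Cish, Socs3, Cxcr3, Eomes and Zbtb16 were called under every alternative. Replicate numbers are shared between the genotypes, but deviations of same-numbered thymic libraries from their group means correlated at -0.12, -0.30 and -0.07 over genes. With 3 libraries a group these values cannot show whether same-numbered libraries shared a step. With the replicate block 402 genes were called in the thymus (240 higher, 162 lower) and 54 for the difference, and 339 of the 421 were called in both fits; 0 of the 6 thymic libraries correlated best with the other genotype's library of its own number. With 3 libraries a group, a change that misses the threshold is not shown to be absent.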

Other observations

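Gm4779 (chrX:101790053-101794423) and the processed pseudogene Gm11645 (chr2:143506411-143507059) were the only genes with at most 3 counts summed over the 6 OTII libraries of both tissues and at least 10 counts in each of the 6 W131AOTII libraries. Gm4779 had 0 counts in all OTII libraries and 10 to 28 counts in the W131AOTII libraries, and Gm11645 had 32 to 76 counts in the latter. In the opposite direction 0 genes met the same limits. Both genes were picked out after their values were seen, and Gm11645 shares sequence with its parent gene, so its counts are uncertain.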
